A study of Homo sapiens with 8 samples.

Results

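FGF1, FGF2, FGF5, FGF9 and FGF18, which are secreted ligands, the receptors FGFR1, FGFR2, FGFR3 and FGFR4, and the carrier protein gene FGFBP1 were compared between spheroids of OVCAR-8, an ovarian adenocarcinoma line, and of OVCAR-8R, a line selected from it for resistance to cisplatin. These 10 genes were picked by name from the FGF family, with earlier results of these data known, among 18417 genes with a probeset annotated to them alone. The filter on low signal kept 10 of 10, and 15931 genes in all. OVCAR-8R, called OVCAR-8C in the sample labels, was obtained by raising the dose of cisplatin, a DNA-damaging platinum drug, in steps to 5 μM, and stayed resistant once the drug was withdrawn. OVCAR-8, labelled wild-type, did not go through this selection. Both lines were kept in serum-containing medium and grown as spheroids in agarose molds, and 4 Affymetrix Human Gene ST arrays were run with RNA of each line. The comparison therefore sets 1 resistant derivative against its parent, and the 4 arrays of a line, labelled biological replicates, are not described as separate selections. Signals are log2 RMA values, and every difference is the mean of OVCAR-8R minus the mean of OVCAR-8 with the standard error (SE) of limma. Calls of higher or lower needed both a Benjamini-Hochberg adjusted p under 0.05 and a difference of at least 2-fold.

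Fibroblast growth factors are heparin-binding proteins that cross-link a receptor tyrosine kinase with heparan sulfate, a sugar chain on the cell surface. The activated receptor signals through the RAS and ERK cascade, phosphoinositide 3-kinase and phospholipase C, and ERK in turn induces inhibitors that limit the signal. FGF1 and FGF2 lack a classical signal peptide and are stored on heparan sulfate until a carrier such as FGFBP1 frees them. FGFR1, FGFR2 and FGFR3 are each made in IIIb and IIIc splice forms that bind different ligands, which a gene-level probeset does not tell apart. In ovarian carcinoma the family is known for autocrine growth and for signals to blood vessels.

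The start regions of some of the genes that moved are shown so that these can be compared at the sequence level. RefSeq windows of 250 bases before to 50 bases after a transcript start (build GRCh38.p14) were found for 8 of the 10 genes, 17 windows in all, several genes having more than 1 start. The windows of FGF1, FGF2, FGF5 and FGFBP1, which rose, and of FGFR2, which fell, are printed 5′ to 3′, and capitals mark matches on either strand to the AP-1 motif TGANTCA or the GC box GGGCGG. They lie at chr5:142644190-142644489 on the minus strand (FGF1, the fourth of its windows), chr4:122826581-122826880 on the plus strand (FGF2), chr4:80266338-80266637 on the plus strand (FGF5, the first), chr4:15938691-15938990 on the minus strand (FGFBP1) and chr10:121598395-121598694 on the minus strand (FGFR2, the first).
FGF1: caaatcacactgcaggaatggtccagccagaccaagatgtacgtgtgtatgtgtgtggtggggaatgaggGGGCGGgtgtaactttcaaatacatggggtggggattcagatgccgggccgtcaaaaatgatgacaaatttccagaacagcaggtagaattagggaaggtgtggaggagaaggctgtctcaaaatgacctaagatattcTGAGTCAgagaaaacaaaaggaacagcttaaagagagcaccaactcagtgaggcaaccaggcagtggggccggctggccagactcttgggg
FGF2: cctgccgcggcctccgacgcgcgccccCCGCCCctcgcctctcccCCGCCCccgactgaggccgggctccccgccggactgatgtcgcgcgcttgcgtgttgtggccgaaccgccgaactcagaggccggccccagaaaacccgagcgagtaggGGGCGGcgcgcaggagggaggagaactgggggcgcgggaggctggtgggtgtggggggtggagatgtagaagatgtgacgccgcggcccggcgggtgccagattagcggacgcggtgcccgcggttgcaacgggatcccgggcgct
FGF5: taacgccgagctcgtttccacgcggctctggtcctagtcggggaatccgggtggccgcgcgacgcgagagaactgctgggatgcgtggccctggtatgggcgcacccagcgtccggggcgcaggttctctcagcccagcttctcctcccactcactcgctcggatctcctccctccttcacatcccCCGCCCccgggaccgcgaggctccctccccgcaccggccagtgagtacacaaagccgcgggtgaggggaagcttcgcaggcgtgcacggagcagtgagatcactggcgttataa
FGFBP1: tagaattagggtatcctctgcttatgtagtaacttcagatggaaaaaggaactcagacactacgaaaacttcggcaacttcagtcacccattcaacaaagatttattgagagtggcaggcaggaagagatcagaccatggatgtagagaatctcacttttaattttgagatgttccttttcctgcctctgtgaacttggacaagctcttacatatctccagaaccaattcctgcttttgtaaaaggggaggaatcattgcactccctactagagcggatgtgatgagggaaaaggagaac
FGFR2: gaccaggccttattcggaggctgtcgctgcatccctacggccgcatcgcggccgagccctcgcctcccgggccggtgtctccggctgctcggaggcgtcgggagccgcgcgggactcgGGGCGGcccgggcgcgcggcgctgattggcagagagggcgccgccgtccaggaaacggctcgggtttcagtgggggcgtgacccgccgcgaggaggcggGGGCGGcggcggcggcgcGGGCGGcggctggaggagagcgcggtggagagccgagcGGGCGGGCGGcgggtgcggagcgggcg

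The AP-1 motif occurred in 1 of the 17 windows, that of FGF1 shown above, against 7.71% of all 35116 windows. The other FGF1 windows, which are not printed, held no AP-1 match. The GC box occurred in 9 of 17, with 3 matches in FGF2 and 5 in the FGFR2 window, against 45% of all windows, and matches may overlap. The highest counts were in windows not printed, 8 matches for FGFR3, which was not called, and 7 in the first window of FGFR4, which rose. A TATA motif, TATAAA, was also searched for and occurred in 1 of the 17 windows, the second of FGF5, against 11.5% of all windows. The FGFBP1 window held none of these motifs. Its GC content was 42%, compared with 74.7% for FGF2, 67% for the FGF5 window, 79.3% for the FGFR2 window and a median of 58.7% over all windows. The windows of 1 gene also differed among themselves. The other 4 FGFR2 windows had 47.3% to 50.7% GC with a GC box in 1 of them, the second FGF5 window had 50.3% and none, and the 4 FGF1 windows had 44.3% to 60% with a GC box in 2. A match is a description of the letters and not evidence of binding, and the arrays do not show which start was used.

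Of the 10 genes, 6 were higher in OVCAR-8R spheroids (FGF1, FGF2, FGF5, FGFR1, FGFR4 and FGFBP1), 2 were lower (FGF9 and FGFR2) and 2 did not pass the test (FGF18 and FGFR3). Of the 15931 genes tested, 16.7% were called, 8.37% in each direction. At an adjusted p under 0.05 and any size of difference 9 of the 10 genes passed, a looser criterion that 57.6% of genes met. The arrays of the lines did not overlap for 8 of the 10, as for 56.8% of genes, so separation of the lines was common. The median difference of the 10 genes was 1.32 on the log2 scale, and that of genes tested was -0.01. The 10 genes were picked with earlier results of these data known, so their counts and median do not stand for the FGF family. Of the other secreted ligands, 10 were tested and 0 were called.

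**Figure D1:**
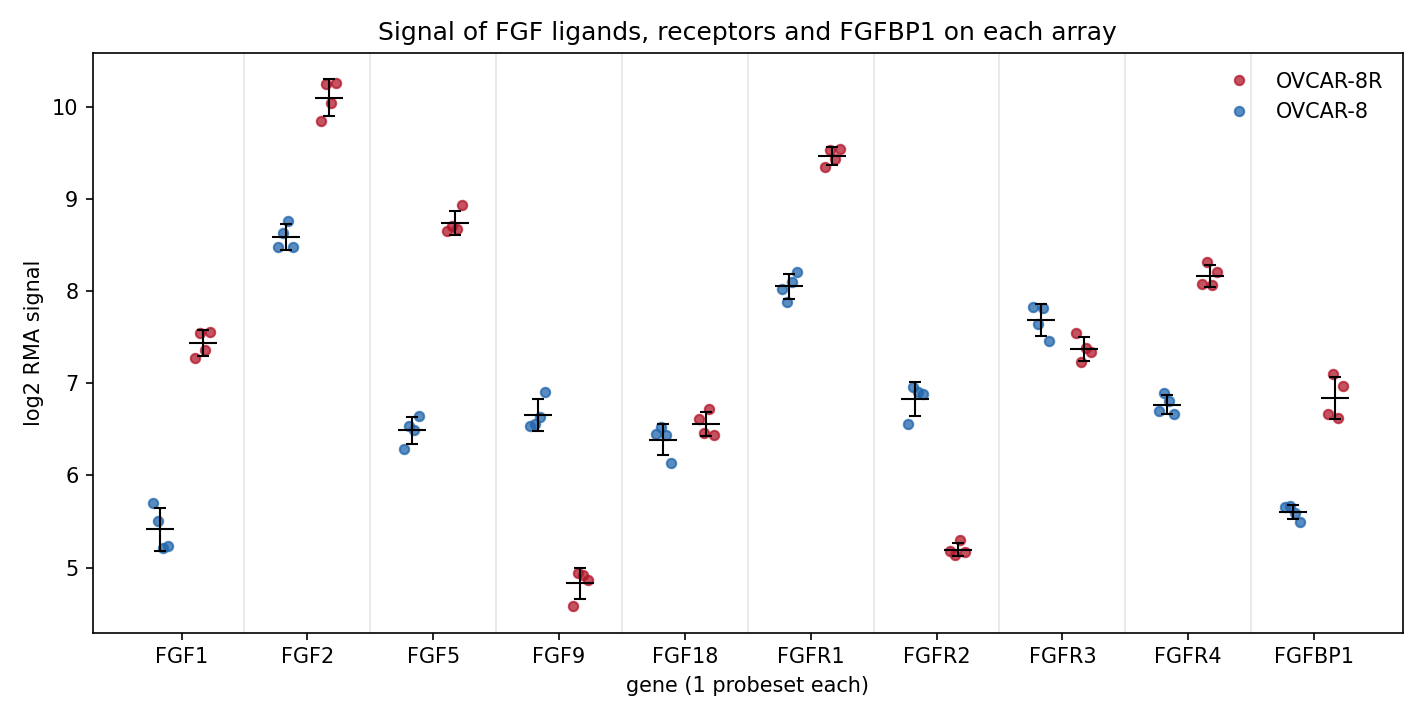
Log2 RMA signal (vertical axis) of each of the 10 genes on the 4 OVCAR-8R arrays (red points) and the 4 OVCAR-8 arrays (blue points), with black bars for each line's mean and SD. The lines are apart for 8 genes and overlap for FGF18 and FGFR3. Heights of different genes come from different probes and are not comparable.

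Among the ligands, FGF5, a regulator of the hair cycle first isolated as an oncogene, rose the most. Its log2 signal was 8.65, 8.71, 8.68 and 8.93 on the OVCAR-8R arrays and 6.29, 6.53, 6.49 and 6.64 on the OVCAR-8 arrays. The lowest resistant array thus lay about 2 log2 units above the highest parental array. The difference was 2.25 (SE 0.10, 4 arrays in each line, limma adjusted p = 6.13e-08), a 4.77-fold rise, which placed FGF5 at rank 329 among the 1334 genes that rose.

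FGF1, the ligand that binds every FGF receptor, had signals of 7.27, 7.55, 7.36 and 7.56 in OVCAR-8R and of 5.71, 5.50, 5.21 and 5.24 in OVCAR-8. The lines did not overlap, and the parental arrays were more spread out (SD 0.24) than the resistant arrays (SD 0.14). FGF1 rose by 2.02 on the log2 scale (SE 0.12, adjusted p = 6.56e-07 from limma), or 4.05-fold. In OVCAR-8 its mean signal of 5.41 was at percentile 28.9 of all probesets of that line, a little above the lowest quartile.

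FGF2, the basic fibroblast growth factor and a potent mitogen for endothelial cells and fibroblasts, was already in the upper part of the signal range in OVCAR-8. The resistant arrays read 9.85, 10.25, 10.04 and 10.26 and the parental arrays 8.48, 8.63, 8.76 and 8.47. In its line, its mean was at percentile 90.7 of probesets in OVCAR-8R and at percentile 77.2 in OVCAR-8. FGF2 rose by 1.51 on the log2 scale (SE 0.11, adjusted p = 2.19e-06 from limma), a 2.86-fold difference.

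FGF9, a ligand of the IIIc receptor forms first described as a growth factor of glial cells, moved the other way. It read 4.58, 4.94, 4.92 and 4.86 in OVCAR-8R and 6.54, 6.55, 6.63 and 6.91 in OVCAR-8. Every resistant array lay below every parental array. FGF9 fell by 1.83 on the log2 scale (SE 0.11, adjusted p = 6.32e-07 from limma). Its OVCAR-8R mean of 4.83 was within the lowest quartile of signal, which ends at 5.11 in this line, so the 3.56-fold drop is best taken as a lower bound.

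FGF18, a growth factor of cartilage and lung, did not pass the test. Its signals of 6.61, 6.46, 6.72 and 6.43 in OVCAR-8R overlapped those of 6.45, 6.52, 6.44 and 6.13 in OVCAR-8. The difference was 0.17 (95% interval -0.07 to 0.40, adjusted p = 0.218 from limma). The interval does not reach 2-fold, but the value does not show that the lines were equal.

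None of the other secreted FGF ligands was called. Of 13 such genes, FGF7, FGF10 and FGF16 were too dim in OVCAR-8R and OVCAR-8 alike to be tested, and 0 of the other 10 were called by limma. At an unadjusted p under 0.05 the count was also 0, and it was 0 with the methods' t-test. Of all 15931 genes tested, 16.7% were called, and 9817 had an unadjusted p under 0.05. Their differences ranged from -0.16 for FGF17 to 0.18 for FGF19, with a median of 0.03. Among the secreted ligands tested, FGF1, FGF2 and FGF5 thus rose and FGF9 fell. Among the 4 intracellular FGF homologous factors, which bind sodium channels and do not act as receptor ligands, FGF12 rose by 1.07 (SE 0.12, adjusted p = 4.08e-05 from limma). FGF11 had a difference of 0.95 and FGF13 of -0.00, neither passing, and FGF14 was below the filter. The share called of the 3 tested was 33.3%, against 16.7% of all genes tested. The call of FGF12 ended with treat, a limma test for more than 2-fold, and without OVCAR-8R arrays 2 and 4, when the difference was 0.99.

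**Figure D2:**
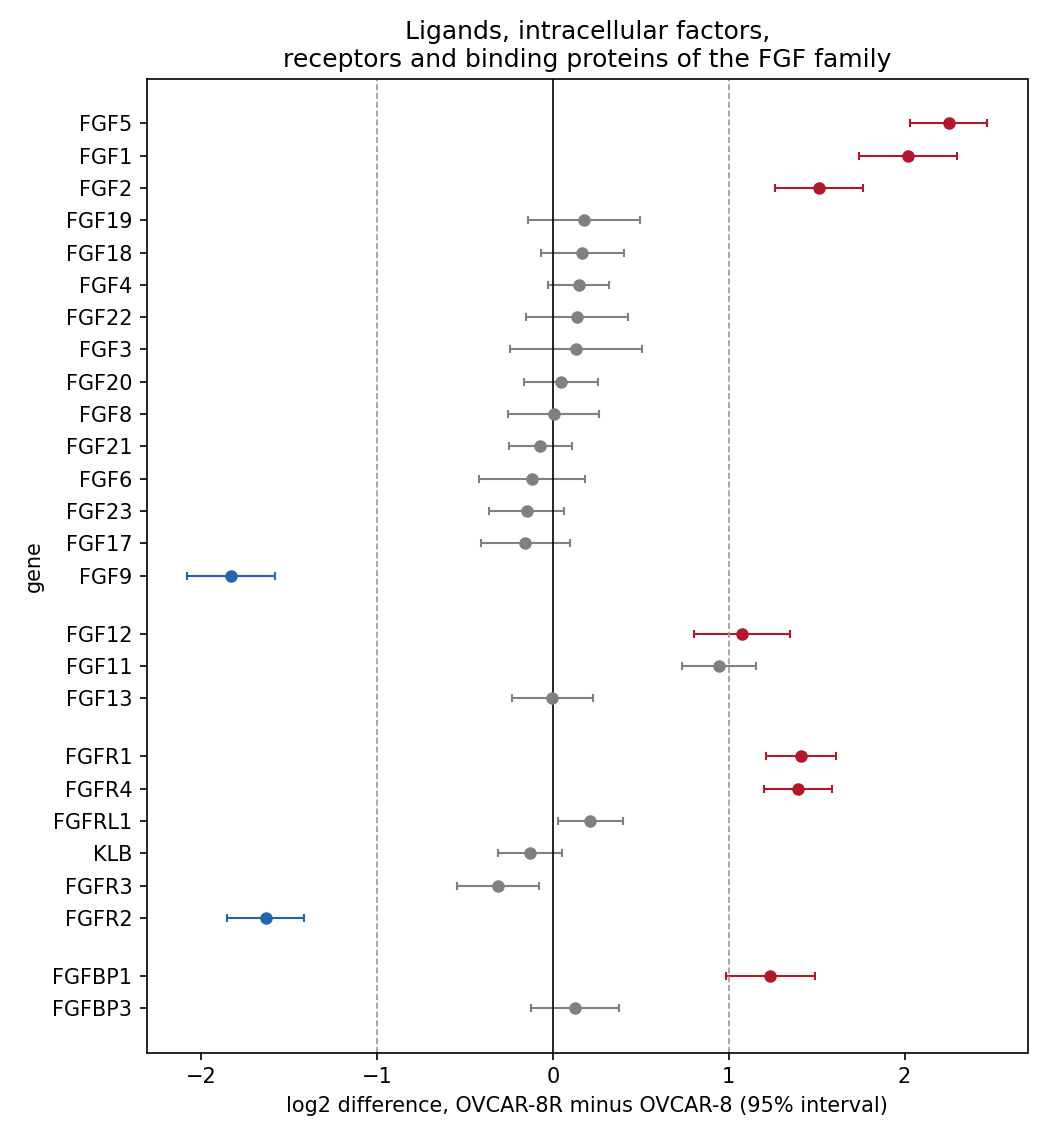
Log2 difference, OVCAR-8R minus OVCAR-8 (horizontal axis), with the 95% interval of limma, for the tested ligands, intracellular factors, receptors (FGFR1 to FGFR4, FGFRL1 and the coreceptor gene KLB) and FGF binding proteins, in that order from the top, without the other coreceptors. Red points were called higher, blue points lower and grey points did not pass, and dashed lines mark 2-fold. FGF5 at 2.25 and FGF9 at -1.83 are the ends of the range plotted, and the ligands between FGF2 and FGF9 lie near 0.

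Of the 4 signalling receptors, FGFR1 and FGFR4 rose, FGFR2 fell and FGFR3 did not pass. FGFR1, the main receptor of mesenchymal cells, read 9.34, 9.53, 9.44 and 9.54 in OVCAR-8R and 8.02, 7.88, 8.10 and 8.20 in OVCAR-8. The gap between the lines was wider than 1 log2 unit for any pair of arrays. FGFR1 rose by 1.41 on the log2 scale (SE 0.09, 4 arrays in each line, limma adjusted p = 7.26e-07), or 2.66-fold.

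FGFR2, whose IIIb form is typical of epithelia, read 5.18, 5.13, 5.29 and 5.17 in OVCAR-8R and 6.56, 6.96, 6.91 and 6.88 in OVCAR-8. The resistant arrays were tightly grouped (SD 0.07), below every parental array. FGFR2 fell by 1.63 on the log2 scale (SE 0.10, adjusted p = 5.16e-07 from limma), 3.10-fold. Its OVCAR-8R mean was at percentile 26.3 of probesets, just above the lowest quartile, so its signal there was close to that of probesets treated as low.

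FGFR4, which lacks the splice forms of the other receptors and binds FGF19 together with beta-klotho, read 8.08, 8.31, 8.06 and 8.20 in OVCAR-8R and 6.70, 6.90, 6.81 and 6.67 in OVCAR-8. The lines were fully apart, and FGFR4 rose by 1.40 on the log2 scale (SE 0.09, adjusted p = 6.58e-07 from limma), 2.63-fold. The gene of beta-klotho, KLB, had a difference of -0.13 (SE 0.08) and did not pass. Its mean was just above the lowest quartile in both lines, at percentile 25.3 of probesets in OVCAR-8R and 26.5 in OVCAR-8.

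FGFR3, known for limiting bone growth, read 7.54, 7.23, 7.38 and 7.34 in OVCAR-8R and 7.83, 7.65, 7.82 and 7.46 in OVCAR-8. The highest resistant array lay above the lowest parental array. The difference was -0.31 (95% interval -0.55 to -0.08, adjusted p = 0.0292 from limma), under the 2-fold threshold. The adjusted p was 0.0557 with the methods' t-test. From limma it was 0.00857 to 0.0829 with each array left out in turn, and 0.181 without OVCAR-8R arrays 2 and 4. FGFRL1, a receptor-like protein without a kinase domain, had a difference of 0.21 (SE 0.08, adjusted p = 0.0542 from limma) and did not pass.

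FGFBP1, the secreted carrier that releases FGF2 from heparan sulfate, read 6.67, 7.10, 6.63 and 6.97 in OVCAR-8R and 5.66, 5.67, 5.59 and 5.50 in OVCAR-8. Every resistant array was above every parental array, although the resistant arrays spread more (SD 0.23 against 0.08). FGFBP1 rose by 1.24 on the log2 scale (SE 0.11, 95% interval 0.98 to 1.49, adjusted p = 9.59e-06 from limma), 2.36-fold. It did not pass with treat (adjusted p = 0.343, against at most 0.00961 for FGF1, FGF2, FGF5, FGF9, FGFR1, FGFR2 and FGFR4 in any alternative run). FGFBP3 had a difference of 0.13, and FGFBP2 was below the filter in both lines.

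Within OVCAR-8R, the arrays fell into pairs. Over all probesets tested, arrays 1 and 3 deviated together from the mean of the line (r = 0.427), as did arrays 2 and 4 (r = 0.484), and the labels give no reason. Some parental arrays lay along the same pattern. OVCAR-8 array 4 correlated with OVCAR-8R arrays 2 and 4 (r = 0.383 and 0.443) and OVCAR-8 array 2 with OVCAR-8R arrays 1 and 3 (r = 0.353 and 0.276). Correlations with the OVCAR-8R arrays were weaker for OVCAR-8 array 1 (-0.144 to 0.165) and OVCAR-8 array 3 (-0.052 to 0.086). The part of this pattern in the FGF differences was not tested beyond the values given here. For FGF1, FGF2, FGF5, FGFR1, FGFR4 and FGFBP1, which were the genes that rose, arrays 2 and 4 both read above arrays 1 and 3, by 0.15 (FGFR1) to 0.39 (FGFBP1) on the log2 scale. FGF18, FGFR2 and FGFR3 read lower on arrays 2 and 4, by 0.22, 0.08 and 0.18, and FGF9 was mixed. For the 6 genes that rose, each step was smaller than the difference between the lines, whereas for FGF18 the step exceeded the difference of 0.17. With arrays 2 and 4 left out FGFBP1 still rose by 1.04 and FGF2 by 1.36, and 6 genes were higher and 2 lower, as they were with arrays 1 and 3 left out. Both alternatives were added after the data had been seen.

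**Figure D3:**
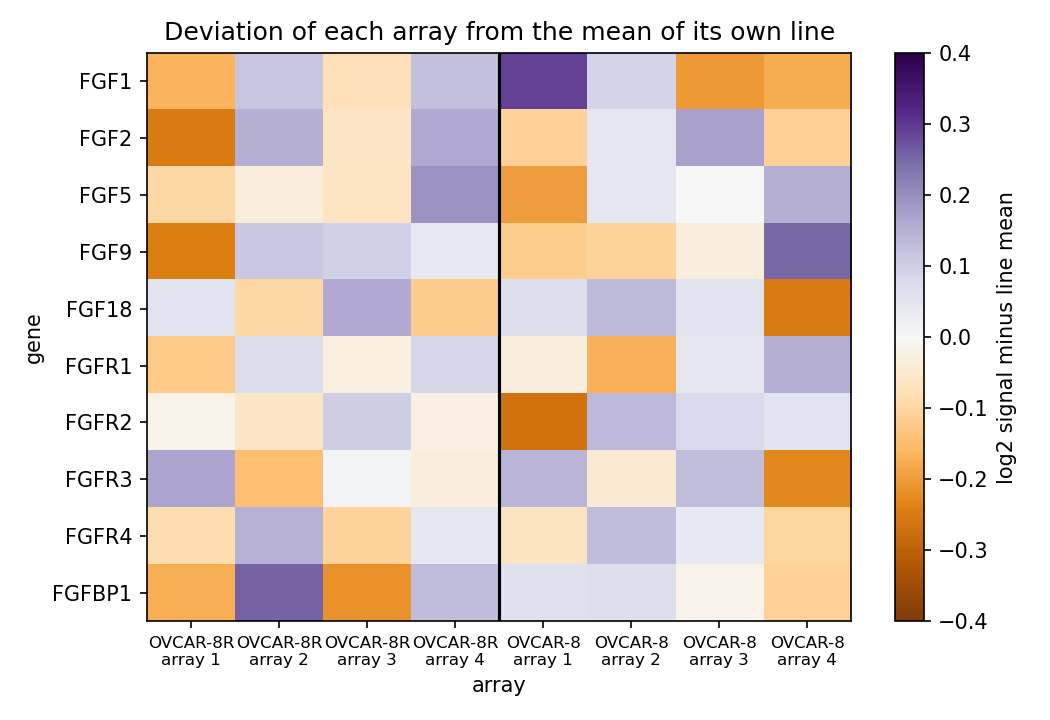
Log2 signal of each gene (rows) on each array (columns) minus the mean of the array's own line (orange below 0, purple above). On the OVCAR-8R side, left of the black line, FGF1, FGF2, FGFR1, FGFR4 and FGFBP1 are purple on arrays 2 and 4 and orange on arrays 1 and 3, and no deviation exceeds 0.29 in size.

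FGFs act with heparan sulfate, and the genes that build, carry and trim it moved in both directions. Of 26 genes tested from this list, 5 were higher, 5 were lower and 16 did not pass, with a median difference of 0.05. The share called was 38.5%, against 16.7% of all genes tested. SULF1 and SULF2 encode extracellular enzymes that remove 6-O-sulfate groups, on which the FGF receptor complex depends. SULF1 read 5.43, 5.38, 5.67 and 5.26 in OVCAR-8R and 8.53, 8.32, 8.69 and 8.76 in OVCAR-8, and fell by 3.14 on the log2 scale (SE 0.12, adjusted p = 2.47e-08 from limma). SULF2 read 6.27, 6.20, 6.41 and 5.76 against 8.01, 8.05, 8.25 and 8.06, and fell by 1.93 (SE 0.13, adjusted p = 1.42e-06 from limma). Both sulfatase genes were thus lower on every resistant array. HS6ST2, which adds the same 6-O-sulfate groups, fell by 1.17 (SE 0.08), and the cell surface glypican gene GPC3 by 1.82 (SE 0.09). In the other direction, EXT1, a polymerase of the chain, rose by 1.92 (SE 0.07), the basement membrane proteoglycan gene AGRN by 1.58 (SE 0.08), EXTL2 by 1.11 (SE 0.11) and the 3-O-sulfotransferase gene HS3ST3A1 by 1.05 (SE 0.07). NDST1 (higher) and SDC2 (-1.03), named after their values were seen, were the other called genes and lay close to 2-fold. With treat the list had 2 higher and 3 lower calls, and those of HS6ST2, EXTL2, HS3ST3A1, NDST1 and SDC2 ended. The call of NDST1 also ended without OVCAR-8R replicate 2 or 4 (0.93, 0.97) or OVCAR-8 replicate 2 (0.88), without OVCAR-8R arrays 2 and 4 (0.85), and with median centring or array weights (both 0.99). That of SDC2 ended without OVCAR-8 replicate 2 (-0.99) and with cyclic loess (-0.97).

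Of 11 other receptors and coreceptors tested, 4 were higher, 1 was lower and 6 did not pass. The share called was 45.5%, against 16.7% of all genes tested. CD44, the hyaluronan receptor that can present growth factors on its sugar chains, rose by 5.88 on the log2 scale (SE 0.08, adjusted p = 9.10e-11 from limma). L1CAM, a neural adhesion molecule that can engage FGFR1, read 9.18, 9.49, 9.27 and 9.38 in OVCAR-8R and 5.98, 6.29, 6.06 and 5.78 in OVCAR-8, and rose by 3.30 (SE 0.12). NCAM1, another neural adhesion molecule known to bind FGFR1, read 5.66, 4.90, 5.79 and 5.41 against 6.89, 6.82, 6.99 and 6.98, and fell by 1.48 (SE 0.17). L1CAM and NCAM1 therefore moved in opposite directions. CDH2, in the same list, had a difference of 0.70 (SE 0.11) and did not pass, with every resistant array above every parental array. FLRT2, a transmembrane protein of a family that binds FGF receptors, rose by 1.66 (SE 0.10), and NRP1, a coreceptor of several growth factors, by 1.18 (SE 0.15). The calls of NCAM1 and NRP1 ended with treat, and that of NRP1 without OVCAR-8R arrays 2 and 4, when its difference was 0.93.

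Of 25 adaptors and signal relays listed, 17 had a probeset of their own and were tested, 2 were higher, 0 were lower by limma and 15 did not pass. The share called, 11.8%, was not far from the 16.7% of all genes tested. At an unadjusted p under 0.05 there were 11 of 17 in either direction, and 9817 of all 15931 genes tested. With the methods' t-test 0 were lower as well. SHC1, an adaptor of receptor tyrosine kinases, rose by 1.60 on the log2 scale (SE 0.08, adjusted p = 1.56e-07 from limma). GAB2, a docking protein, had a difference of 1.01 (SE 0.07), just past the threshold. It did not pass after each of 3 rescalings of the arrays (lowest difference 0.97), nor without OVCAR-8R replicate 2 or 4 or without OVCAR-8 replicate 1 (differences of 0.99, 0.98 and 0.98). FRS2, the docking protein specific to FGF receptors, had no probeset naming it alone.

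Among feedback inhibitors, 4 of 15 genes tested were higher, 1 was lower and 10 did not pass. The share called was 33.3%, against 16.7% of all genes tested. SPRY4, a Sprouty protein that restrains receptor signalling to RAS, read 8.13, 8.22, 8.09 and 8.30 in OVCAR-8R and 5.68, 5.88, 5.81 and 6.03 in OVCAR-8. SPRY1, of the same family, read 6.79, 6.33, 6.63 and 6.66 against 8.92, 8.77, 8.92 and 9.00. The lines did not overlap for either gene, and the order was opposite. SPRY4 rose by 2.34 on the log2 scale (SE 0.09, adjusted p = 2.96e-08 from limma), and SPRY1 fell by 2.30 (SE 0.10, adjusted p = 8.49e-08 from limma). For SPRY2 and SPRY3, differences were -0.15 and -0.40, neither of them passing. The ERK phosphatase gene DUSP6 read 8.24, 7.97, 8.28 and 8.07 against 6.40, 6.09, 6.29 and 6.12 and rose by 1.92 (SE 0.10). DUSP5, a nuclear ERK phosphatase, rose by 1.68 (SE 0.14), and PEA15, which holds ERK in the cytoplasm, by 1.30 (SE 0.09).

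Of 18 transcriptional targets tested, 10 were higher, 1 was lower and 7 did not pass, with a median difference of 1.23. The share called was 61.1%, against 16.7% of all genes tested. The list includes SPRY4 and DUSP6, which also stand in the list of inhibitors, and most of its genes respond to ERK whichever receptor activates it. CCN2, a matricellular protein, rose by 3.39 on the log2 scale (SE 0.15), PHLDA1 by 3.30 (SE 0.09), the AP-1 factor gene FOSL1 by 2.78 (SE 0.20) and the early response gene IER3 by 2.62 (SE 0.06). The ETS factor genes ETV4 and ETV5, which are widely used as readouts of FGF signalling and are named here after their values were seen, rose by 1.19 (SE 0.11) and 1.27 (SE 0.12). Their calls ended with treat. ETV1, in the same list, had a difference of 0.35 with overlapping lines and did not pass. EPHA4, an ephrin receptor, fell by 1.37 (SE 0.14), a call that also ended with treat, while the early genes EGR1 (-0.24) and FOS (-0.58) were not called. Arrays measure RNA, and receptor activity and ERK phosphorylation were not measured.

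**Figure D4:**
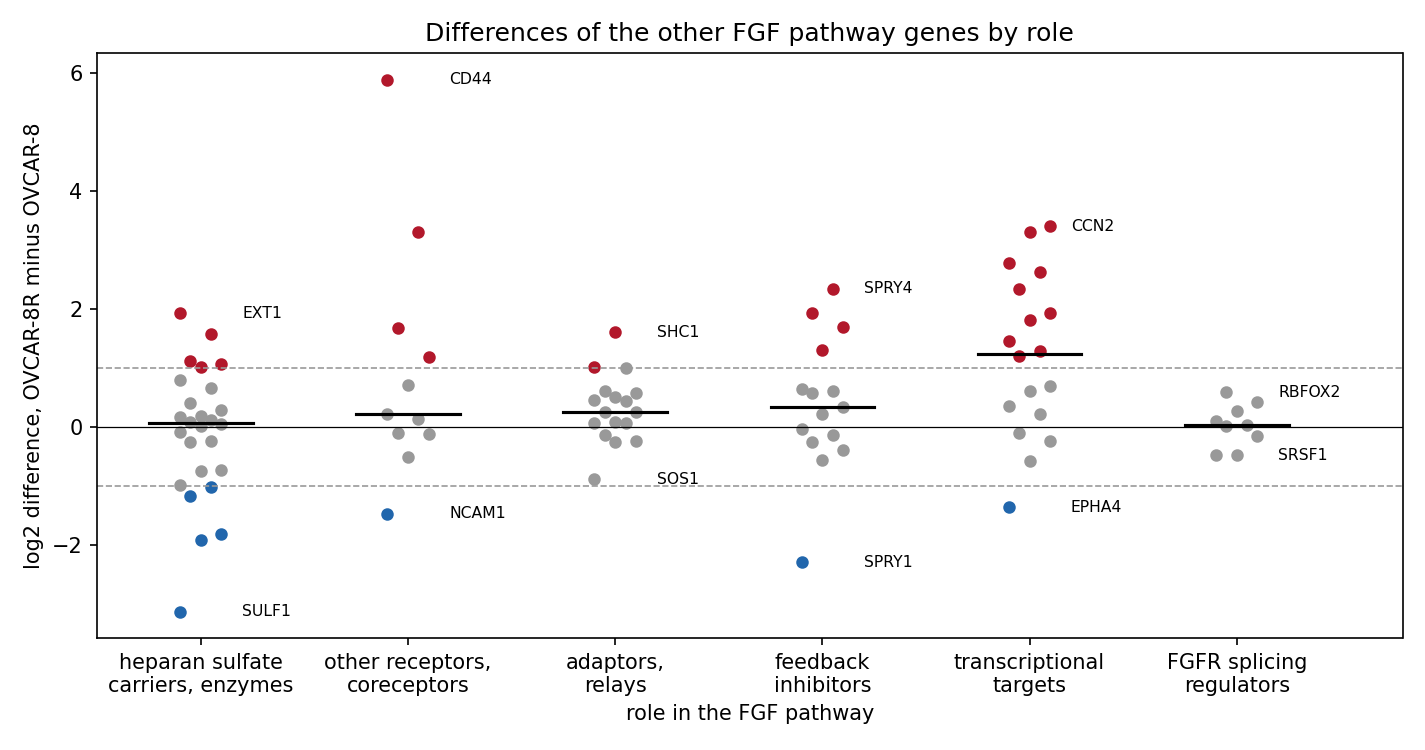
Log2 difference, OVCAR-8R minus OVCAR-8 (vertical axis), of each tested gene in 6 roles around the FGF receptors. Red points were called higher, blue points lower and grey points did not pass, black bars are the medians, dashed lines mark 2-fold, and the genes at the ends of each role are named. Targets have a median of 1.23, while the other 5 roles lie between 0.03 and 0.33.

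Regulators of FGFR splicing were not called. Of 9 genes tested, 0 passed by limma with the 2-fold threshold and 0 with the methods' t-test, with 5 at an unadjusted p under 0.05. Of all 15931 genes tested, 16.7% were called, and 9817 had an unadjusted p under 0.05. At a limma adjusted p under 0.05 and any size, 2 of the 9 were higher and 2 lower, a criterion that 57.6% of genes met. ESRP2, an epithelial factor that favours the IIIb forms, read 6.75, 6.91, 6.77 and 6.53 in OVCAR-8R and 7.33, 6.95, 7.06 and 7.55 in OVCAR-8. The lines did not overlap, but the difference of -0.48 (SE 0.14, adjusted p = 0.0145 from limma) was under 2-fold. RBFOX2, a splicing factor of mesenchymal cells, had a difference of 0.58, and ESRP1 had no probeset naming it alone.

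Markers of other cell types were examined beside these values. Of 5 endothelial markers 0 were called by limma, with 0 at an unadjusted p under 0.05. Of all 15931 genes tested, 16.7% were called, and 9817 had an unadjusted p under 0.05. The mean signal of the endothelial markers was 5.37 to 5.51 on the OVCAR-8R arrays and 5.22 to 5.34 on the OVCAR-8 arrays. The leukocyte marker PTPRC had means of 3.86 and 3.97 in OVCAR-8R and OVCAR-8, and the fibroblast marker DCN of 3.90 and 3.91, all below the filter. Of the 8 fibroblast markers 6 were tested, COL1A1 rose by 2.04, LUM was called lower and 4 did not pass. The share called was 33.3%, against 16.7% of all genes tested. Among the 4, PDGFRB had a difference of 0.60 (limma adjusted p = 2.42e-04), under 2-fold, with every resistant array above every parental array. LUM had a mean of 4.08 in OVCAR-8R, within the lowest quartile, and its call ended with treat. Of the leukocyte markers CD68, a lysosomal protein, rose by 2.52. Of 11 Mullerian and epithelial markers, 6 were higher (among them KRT7 by 4.45, MSLN by 3.83 and PAX8 by 3.77), 0 were lower and 5 did not pass. The share called was 54.5%, against 16.7% of all genes tested. Among the 5, WT1 had a difference of -0.86 (limma adjusted p = 2.02e-04) and CDH1 of -0.23 (limma adjusted p = 0.0465). Both lay under 2-fold, with every resistant array below every parental array. The mean signal of that list was 8.50 to 8.68 in OVCAR-8R and 6.85 to 7.02 in OVCAR-8. MUC16, which encodes the ovarian tumour antigen CA125, had means of 5.74 and 5.67. The part of these markers in the FGF differences was not tested, and fewer cells of a kind and less RNA per cell cannot be told apart in such bulk samples.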

How the data were processed

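The authors extracted RNA from spheroids with Trizol, hybridized it to Affymetrix Human Gene ST arrays and ran RMA (background correction, quantile normalization, probe summary) within Affymetrix Expression Console. The deposited table holds 1 linear intensity per probeset and array (33297 probesets, 8 arrays), and the authors' filter is not applied in it. Quantile normalization removes overall differences between arrays. For the probesets, a genome build was not given in the sources used here.

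Log2 of each intensity was taken, and probesets whose mean fell in the lowest 25% for each line (5.11 in OVCAR-8R, 5.16 in OVCAR-8) were left out as in the methods, which kept 25628. The annotation names 1 gene for 19460 probesets, of which 19429 were found in a RefSeq gene table, several genes for 1754 and leaves 12083 unnamed here. Probesets with several genes gave no name. Where a gene had several probesets, the one with the highest mean signal was used, and each of the 10 FGF genes had 1. Lines were compared by limma 3.58.1 (lmFit, then eBayes) under R 4.3.3 across the probesets kept, without a replicate block. Genes named are the 10 FGF genes, called ligands and intracellular factors, up to 4 called genes per role and direction with the largest difference, and FGFRL1, KLB, FRS2, ESRP1 and ESRP2. Other genes given with values were chosen after these were seen. The FGF genes and the lists were chosen with earlier results of these data known. The fit was checked on simulated data. The labels do not say at which step replicates were separated, so p-values reflect only how much these arrays vary. Precision is limited by the 4 arrays of each line, which carry no read depth. Alternatives were other signal filters and thresholds, treat, an intensity trend, the methods' t-test, rescalings, array weights, averaging a gene's probesets, arrays left out, and the replicate number as a block.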

Additional observations from a re-analysis of the deposited data

Results flagged for a closer look

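IER3 was the gene with a sample far from the others. On the array of OVCAR-8 replicate 3 it read 10.19 on the log2 scale, while the other 3 arrays of the line read 10.11 to 10.12, so that the gap made up 0.952 of the whole range of the group. The gap is 0.07 log2 units, small beside the difference of 2.62 between the lines. Of 82 groups of 4 arrays examined this was 1, and chance flags about 1 in 20 groups. No array of the 10 FGF genes stood apart by this criterion.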

How the results depend on the processing

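The calls of FGF1, FGF2, FGF5, FGFR1 and FGFR4 held under each alternative run, and so did those of FGF9 and FGFR2 except that with only probesets above the 40th percentile of mean signal these were not tested, which left 0 members called lower and 0 intracellular factors called higher. FGF18 passed under no alternative. No difference of a member changed sign. With treat, FGFBP1 (1.24) did not pass, 1059 probesets were higher and 832 lower, and called genes were 0 higher intracellular factors, 0 lower coreceptors, 2 higher and 3 lower heparan sulfate genes, 1 higher adaptor and 0 lower targets. With no fold threshold, FGFR3 (-0.31) passed, 6009 probesets were higher and 7034 lower, and called genes were 2 higher intracellular factors, 2 lower coreceptors, 9 higher and 10 lower heparan sulfate genes, 9 higher and 2 lower adaptors, 8 higher and 3 lower inhibitors, 2 lower targets, and 2 higher and 2 lower splicing regulators. Median centring left 1 higher adaptor. Leaving out each array in turn gave 6 members higher and 2 lower each time, and 1 to 3 higher adaptors. Without OVCAR-8R arrays 2 and 4, 0 intracellular factors and 1 adaptor were higher and 1 adaptor was lower, and without arrays 1 and 3, 2 intracellular factors were higher. The cause was not tested where the alternative does not itself show it, as treat, the thresholds and the filter do. Deviations of same-numbered arrays correlated at 0.165, -0.323, -0.052 and 0.443, without a common sign. Whether arrays of the same number were prepared together cannot be read from these values, because the OVCAR-8R arrays also deviate in pairs. With a replicate block 6 members were higher and 2 lower, and FGF5 differed by 2.25. Where the dimmer line is near background, as for FGF9, sizes are limited by signal.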
